A study of Homo sapiens with 2 samples.

Results

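The metallothioneins MT2A, MT1X, MT1F, MT1G and MT1E, together with the zinc exporter SLC30A1 and the zinc-sensing transcription factor MTF1, are 7 of the 33538 Ensembl genes counted in single SH-SY5Y (SY5Y) cells. SY5Y is an established human neuroblastoma line, and the cells were untreated and grown in high-glucose DMEM with fetal bovine serum. Cells of 2 flasks, SplitA and SplitB, which shared line, medium and lack of treatment, received 1 hashtag antibody per flask and were pooled in 1 library, so the flask of a cell was known from its hashtag counts alone. Of 2879 cells, hashtags put 1605 in SplitB and 1179 in SplitA, while 95 were multiplets. After a minimum of 1000 genes per cell, 899 cells of SplitA and 1195 of SplitB were examined. The 7 members were matched by symbol, and they were chosen by their high UMI counts in single cells of these data, seen in MT2A and MT1X.

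Metallothioneins are small cysteine-rich proteins that bind zinc, copper and cadmium and buffer their free concentration. When free zinc rises, MTF1 is known to bind short metal response elements before its target genes, which include metallothioneins and SLC30A1, the exporter that carries zinc out through the plasma membrane. Glucocorticoids and oxidative stress are also known inducers of the family, and MTF1 itself acts mostly by changes in its protein rather than its RNA.

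The 5 metallothionein members lie on chromosome 16 of GRCh38 in 1 gene cluster. By GENCODE release 44, MT2A (ENSG00000125148) spans 56608584 to 56609497, MT1E (ENSG00000169715) 56625475 to 56627112, MT1F (ENSG00000198417) 56657731 to 56660698 and MT1X (ENSG00000187193) 56682470 to 56684196, all on the plus strand. MT1G (ENSG00000125144) spans 56666730 to 56668065 on the minus strand. On chromosome 1, SLC30A1 (ENSG00000170385) spans 211571568 to 211579161 and MTF1 (ENSG00000188786) 37809574 to 37859592, both on the minus strand. The MT1X gene overlaps the annotated gene ENSG00000259827 and MTF1 overlaps ENSG00000235673. The metallothionein transcripts are close paralogs, and reads that fit several of them could have been split or dropped in the counting, so the counts of single family members are uncertain to that extent.

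The RefSeq promoter table held 4 of the 7 members, MT2A, MT1X, SLC30A1 and MTF1. The 250 bases before each start are shown because they carry, or lack, the core of the metal response element, searched as TGCGCNC and TGCACNC on both strands. Capitals mark the matches, and no match overlaps another.
MT2A, GRCh38.p14 chr16:56608334-56608583, plus strand: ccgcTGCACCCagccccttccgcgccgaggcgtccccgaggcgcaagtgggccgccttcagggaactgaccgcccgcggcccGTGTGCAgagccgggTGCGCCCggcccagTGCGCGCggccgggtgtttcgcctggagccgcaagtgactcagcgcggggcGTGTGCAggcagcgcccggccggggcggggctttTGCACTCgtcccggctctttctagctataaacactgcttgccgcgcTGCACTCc
MT1X, GRCh38.p14 chr16:56682220-56682469, plus strand: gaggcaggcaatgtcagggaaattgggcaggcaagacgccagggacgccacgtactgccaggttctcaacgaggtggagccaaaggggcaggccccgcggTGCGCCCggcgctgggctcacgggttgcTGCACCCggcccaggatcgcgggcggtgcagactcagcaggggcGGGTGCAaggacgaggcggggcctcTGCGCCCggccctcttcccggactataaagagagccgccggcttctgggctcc
SLC30A1, GRCh38.p14 chr1:211579162-211579411, minus strand: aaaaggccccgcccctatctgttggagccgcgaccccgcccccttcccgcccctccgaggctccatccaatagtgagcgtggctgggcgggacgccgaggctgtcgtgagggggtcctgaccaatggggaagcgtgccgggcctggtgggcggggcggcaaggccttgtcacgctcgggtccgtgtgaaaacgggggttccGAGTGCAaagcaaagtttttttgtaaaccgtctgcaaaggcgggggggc
MTF1, GRCh38.p14 chr1:37859593-37859842, minus strand: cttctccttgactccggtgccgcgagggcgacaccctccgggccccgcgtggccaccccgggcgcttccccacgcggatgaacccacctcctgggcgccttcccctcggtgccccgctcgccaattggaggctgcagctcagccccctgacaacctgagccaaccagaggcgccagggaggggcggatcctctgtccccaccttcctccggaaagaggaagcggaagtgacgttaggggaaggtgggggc
MT2A held 7 matches, a number reached by 0.0313% of the 35116 promoters of the table. MT1X held 4, reached by 0.370% of promoters. SLC30A1 held 1, and 24.8% of promoters held at least 1. These letters were not in the MTF1 window. A match describes the letters and is not a measured binding site.

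**Figure D1:**
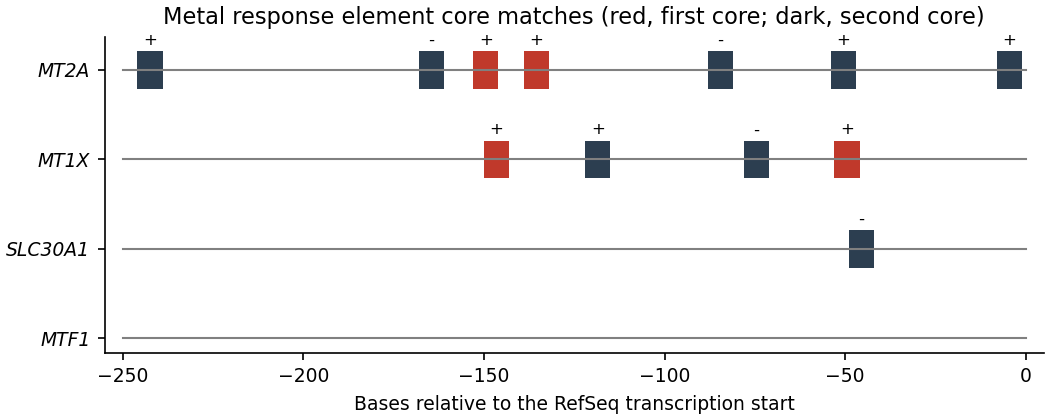
Positions of the metal response element cores in the 250 bases before the RefSeq start of 4 members, with the x axis in bases relative to the start, red bars for TGCGCNC, dark bars for TGCACNC, and the strand above each bar. The 7 matches of MT2A spread from 246 bases before the start to 2 bases before it, while the MTF1 line is empty.

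Most cells held few metallothionein UMIs, and a handful in SplitB held very many. MT2A had no UMI in 655 of 899 cells of SplitA and in 814 of 1195 cells of SplitB. Its highest count in a cell was 6 in SplitA and 106 in SplitB. MT1X had at most 7 UMIs in a cell of SplitA and 191 in SplitB. Counts of MT2A themselves chose the cells described next, those with at least 10 MT2A UMIs, called MT2A-high. SplitB had 7 such cells, or 0.586% (exact binomial 95% interval 0.236 to 1.20%). SplitA had 0 of 899 cells (0 to 0.409%). The lowest MT2A-high cells had 13 MT2A UMIs and the highest cells below the limit had 8. These intervals and all those below cover counting error only, and with 1 flask against 1 flask no test was made.

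**Figure D2:**
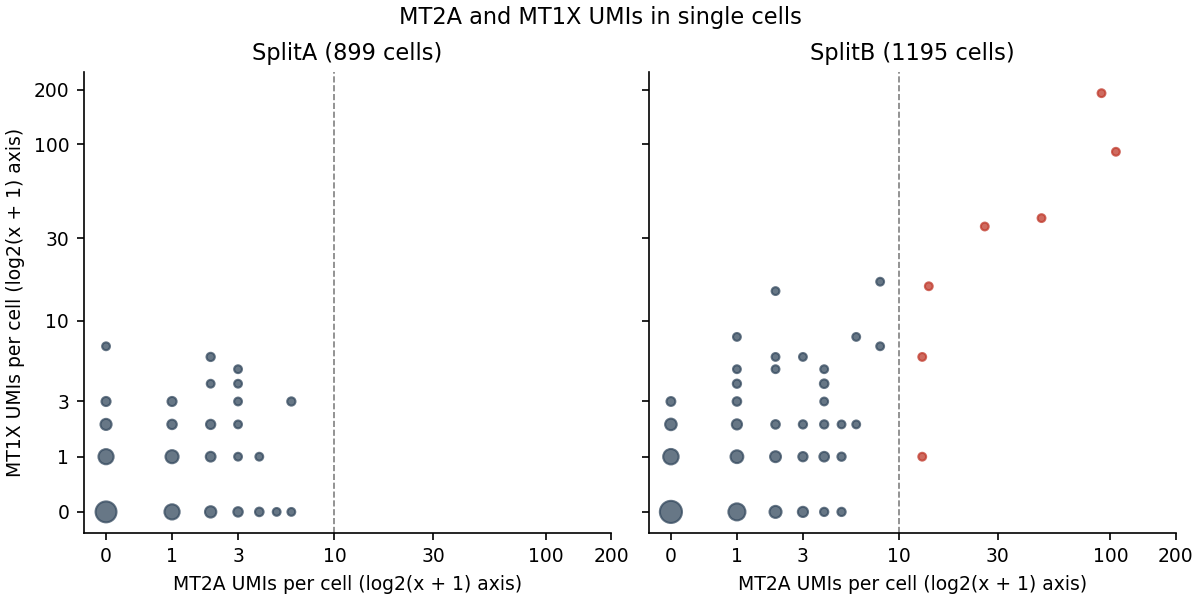
MT2A (x axis) and MT1X (y axis) UMIs per cell, both on log2(x + 1) axes, for 899 cells of SplitA and 1195 of SplitB, where larger points stand for more cells and the dashed line for 10 MT2A UMIs. The 7 red points of SplitB extend to 106 MT2A and 191 MT1X UMIs, and no cell of SplitA lies right of the line.

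The members were not raised in the same proportions in these cells, which are numbered from 1 to 7 by falling MT2A count. MT2A had 106, 91, 48, 26, 14, 13 and 13 UMIs in cells 1 to 7. MT1X had 91, 191, 39, 35, 16, 6 and 1 in the same cells, so that it was near or above MT2A in the first 5 and far below it in cell 7. MT1F had 5, 22, 2 and 3 in cells 1 to 4 and none in the others. MT1G had 19 UMIs in cell 1, 20 in cell 3 and none in the other 5. MT1M, a metallothionein outside the chosen members, had 13 UMIs, all in cell 2. MT1E had none in any MT2A-high cell. SLC30A1 had 6 UMIs in cell 2, 3 in cell 3, 2 in cell 5 and 1 in cell 7. Metallothioneins together took 3.91% of all UMIs of cell 2 and 2.72% of cell 1, against 0.142% of cell 7 and 0.0142% over the other SplitB cells.

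**Figure D3:**
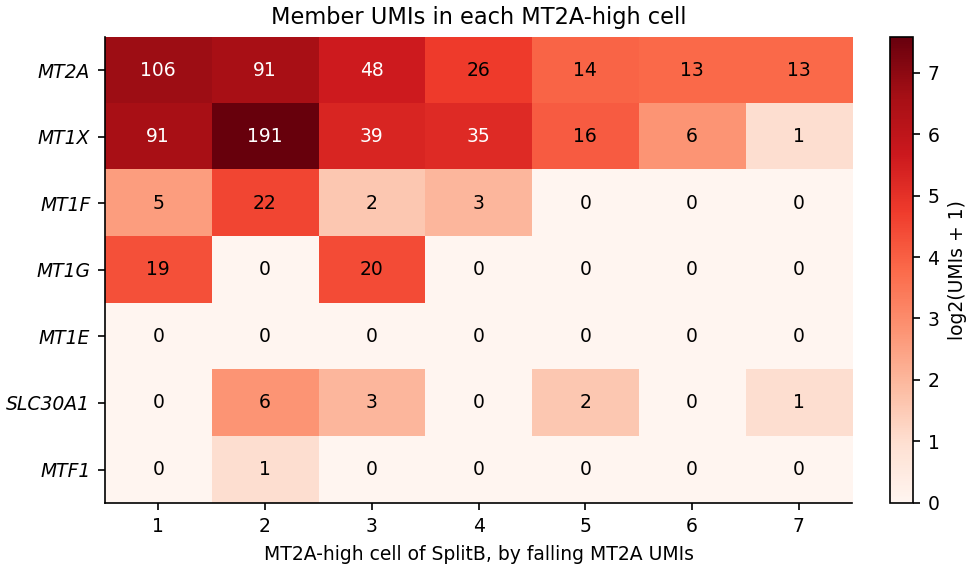
UMIs of the 7 members (rows) in each MT2A-high cell of SplitB (columns, by falling MT2A count), with the count written in each field and the colour on a log2(UMIs + 1) scale. MT2A and MT1X are high together in cells 1 to 5, while MT1G is confined among these 7 cells to cells 1 and 3.

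The balance of MT1X and MT2A differed between cells 1 and 2 by more than counting error. MT1X made up 67.7% of the MT1X and MT2A UMIs of cell 2 (exact binomial interval 61.9 to 73.2%) and 46.2% of those of cell 1 (39.1 to 53.4%). In cells 3 to 6 it made up 44.8, 57.4, 53.3 and 31.6%, with overlapping intervals, and in cell 7 7.14% (0.181 to 33.9%). Over the 7 cells together it was 54.9% (51.1 to 58.7%). Cell 2 held 191 of the 379 MT1X UMIs of this sum, so the pooled share leans on that cell. MT2A chose these cells and is part of the share, so a low share such as that of cell 7 comes in part from the choice. Over the other SplitB cells together the share was 43.1% (39.96 to 46.2%), and in SplitA it was 48.4% (44.5 to 52.3%).

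Summed over the 7 cells and set against the other 1188 cells of SplitB, levels are given as UMIs per 1000000 UMIs (CPM), with exact Poisson intervals. The 7 cells held 0.603% of the UMIs of the flask. MT1X was not used to choose the cells, but its high counts in single cells were among the reasons for choosing the members. It was at 7789 CPM (7024 to 8614) in the 7 cells and 53.8 (48.8 to 59.1) in the others, a ratio of 145 (126 to 167). The MT2A-high cells held 46.8% of all MT1X UMIs of SplitB. MT1F was at 658 CPM (450 to 928) against 15.6 (12.98 to 18.6), a ratio of 42.2 (27.7 to 62.6). MT1G had 39 UMIs in the 7 cells and 1 in the others, a ratio of 6426 whose interval runs from 1087 to 260248 because it rests on a single UMI. MT2A, which chose the cells, was at 6391 CPM against 71.1.

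SLC30A1 shared the pattern at a lower level, and MTF1 could not be seen to. SLC30A1 was at 247 CPM (127 to 431) against 20.1 (17.1 to 23.4), a ratio of 12.3 (6.22 to 22.1), with a UMI in 4 of the 7 cells and in 12.0% of the others. MTF1 had 1 UMI in the 7 cells and 0.631 expected, and its ratio of 1.58 has an interval of 0.0397 to 9.02, so that neither a fall nor a rise could be detected at this depth. MT1E had 0 UMIs in the 7 cells and 1 in the others, and no ratio is given.

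Depth and hashtags did not set the MT2A-high cells apart from their flask, while the mitochondrial share did in part. They had 4584 to 9849 UMIs, with a median of 6615 against 6342.5 in the other SplitB cells, and lay between the 21.9 and 88.9 percentiles of the flask. Their Hashtag-2 counts were 310 to 1695 and their Hashtag-1 counts 18 to 57. UMIs of the 13 mitochondrial genes took 1.06 to 7.52% of their UMIs, with a median of 3.58% against 8.84% in the other cells, and 4 of the 7 were in the lowest 1% of the flask. With totals that left out mitochondrial genes and metallothioneins, the MT1X ratio was 139.5, that of MT1F 40.6 and that of SLC30A1 11.8, each within its interval above. For the other genes the part of this lower share was not tested. MALAT1, a long noncoding RNA named after its values were seen, had UMIs in 6 of the 7 cells and in 99.7% of the other SplitB cells. Its sum was not lower, with 984 UMIs and 672 expected (ratio 1.46, 1.37 to 1.56). Why a cell lacked it was not tested. UMIs of MT1G outside the 7 cells numbered 1 in the other 2087 cells of both flasks. As the file holds 1 cell line, a background from a cell type without these genes was not at hand, and the part of free RNA was not tested.

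High MT1X without high MT2A was also seen in SplitB. MT1X reached 10 UMIs in 7 cells, and 5 of them were MT2A-high. The other 2 had 17 MT1X and 8 MT2A UMIs, and 15 MT1X and 2 MT2A UMIs. In SplitA, the highest 4 cells had 6, 6, 6 and 5 MT2A UMIs with 3, 3, 0 and 0 MT1X UMIs, and they had 11190, 22862, 5986 and 8615 UMIs in all. None of these 4 cells had a UMI of MT1G. Their metallothioneins took 0.0437 to 0.100% of their UMIs, below the lowest MT2A-high cell, cell 7 (0.142%). In SplitB cell 7 was not set apart in this way, since the cells with 17 and 15 MT1X UMIs had 0.339 and 0.208%.

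MT1X was also higher in cells with more MT2A UMIs below the limit, in both flasks. In SplitA, MT1X was at 43.9 CPM (37.7 to 50.8) in cells without a UMI of MT2A, 74.97 (62.2 to 89.6) in cells with 1 to 2 and 112 (70.2 to 170) in the 20 cells with 3 to 9. In SplitB, it was at 37.6 (32.4 to 43.3), 62.9 (53.3 to 73.7) and 181 (145 to 223) in the 47 cells with 3 to 9. The last of these intervals did not overlap the first in either flask. MT1F was at 13.1 (10.2 to 16.6) in SplitB cells without MT2A and 33.6 (19.2 to 54.6) in those with 3 to 9, and at 11.6 and 25.4 in SplitA, where the intervals overlapped. SLC30A1 was at 18.2 (14.7 to 22.3) and 37.8 (22.4 to 59.8) in SplitB and at 15.8 and 30.5 in SplitA. MTF1 was at 11.3 (8.62 to 14.7) and 21.0 (10.1 to 38.6) in SplitB, and at 13.3 (10.0 to 17.4) and 35.6 (14.3 to 73.4) in SplitA, with overlapping intervals in each flask. Cells with more MT2A UMIs were deeper, with a median of 6121 UMIs at none and 7956 at 3 to 9 in SplitB.

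Across cells, the Pearson r of log-normalized MT1X with MT2A was 0.18 in SplitA (899 cells), 0.40 in SplitB (1195 cells) and 0.23 in SplitB without the 7 cells. With each cell thinned to 2000 UMIs it was 0.08 in SplitA and 0.29 in SplitB. For MT1F it was 0.08, 0.23 and 0.09, and for SLC30A1 0.06, 0.13 and 0.05. MTF1 had an r of -0.01 in SplitA and 0.04 in SplitB. Of the 7782 genes that 5% or more of the cells in each flask held a UMI of, MT1X was the gene most like MT2A by the lower r of both flasks. The next 9 were S100A11 (0.12), GNAS (0.12), ATP5F1E (0.11), VIM (0.11), H3-3B (0.10), HINT1 (0.09), HMGN2 (0.09), RPL41 (0.09) and PTMS (0.09). These values are weak, come from sparse counts of cells that share library and depth, and are a description only.

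The MT2A-high cells made up most of the flask difference of the family. MT2A was at 58.3 CPM (52.2 to 64.8) in SplitA and 109 (102 to 117) in SplitB, a ratio of SplitB to SplitA of 1.87 (1.65 to 2.13). Without the 7 cells it was at 71.1 (65.4 to 77.2) in SplitB, and the ratio was 1.22 (1.07 to 1.40). These cells were chosen by MT2A and lay in SplitB alone, so the MT2A ratio had to fall without them. MT1X was at 54.7 (48.8 to 61.0) and 100.4 (93.6 to 108), a ratio of 1.84 (1.61 to 2.10), and without the 7 cells at 53.8 in SplitB with a ratio of 0.98 (0.85 to 1.14). MT1F went from a ratio of 1.48 (1.12 to 1.97) to 1.19 (0.89 to 1.60). SLC30A1 had a ratio of 1.24 (0.97 to 1.60) and MTF1 of 1.00 (0.74 to 1.37) over all cells. MT1G had 0 UMIs in SplitA and 40 in SplitB. MT2A had a UMI in 27.1% of SplitA cells (24.3 to 30.2%) and 31.9% of SplitB cells (29.2 to 34.6%), and after thinning to 2000 UMIs per cell in 11.02% (9.05 to 13.3%) and 12.2% (10.4 to 14.2%), with 1 cell of SplitA and 2 of SplitB too shallow to thin. The ratio of variance to mean of MT2A counts was 26.9 in SplitB, 1.78 without the 7 cells, and 1.54 in SplitA.

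**Figure D4:**
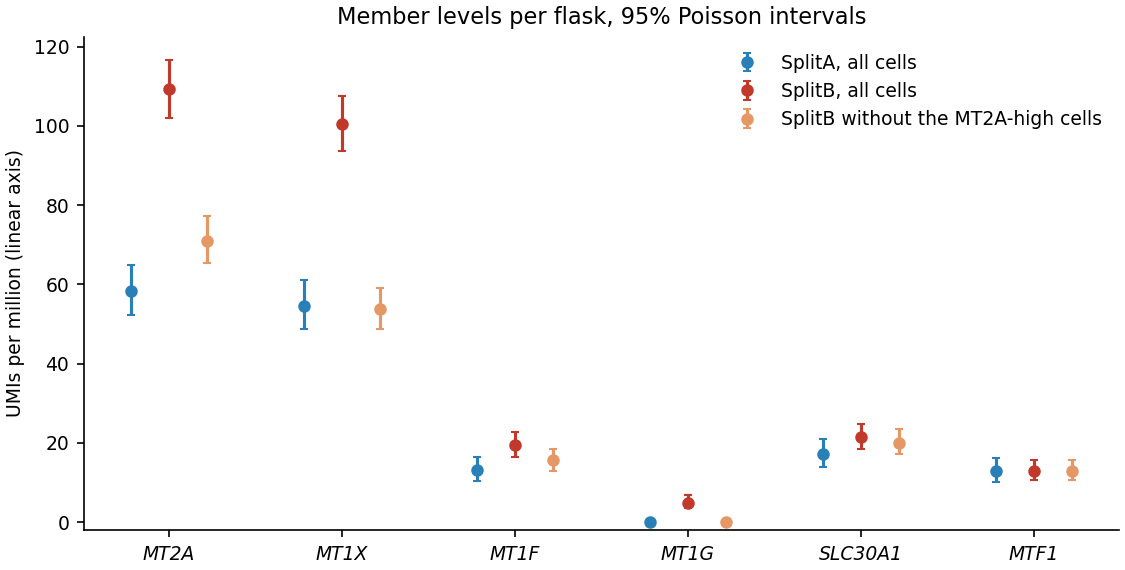
Levels of 6 members in CPM (linear y axis) in SplitA, in SplitB and in SplitB without its 7 MT2A-high cells, with exact Poisson 95% intervals as bars. Without these cells the MT1X level of SplitB, 53.8, lies beside that of SplitA, 54.7, and the MT2A level falls from 109 to 71.1.

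What else the MT2A-high cells expressed was described in SplitB alone, since SplitA had no such cell. Outside the metallothioneins, 719 genes had at least 10 UMIs in the 7 cells or at least 10 expected from the other cells. Of these, 161 were at least 2-fold higher (22.4%) and 74 were at most 0.5-fold (10.3%), and the median ratio over all 719 was 1.16. A gene with few expected UMIs entered only by being high, as did 131 of the 161. Among the 512 genes with at least 10 expected UMIs, 30 were at least 2-fold higher (5.86%), 74 were at most 0.5-fold and the median ratio was 0.93. Leaving out each of the 7 cells in turn, 91 of the 161 higher and 49 of the 74 lower genes kept their side of the limit in every case. Of the 30 higher genes with at least 10 expected UMIs, 10 did so. The minimum of 10 UMIs was not applied again here, and GADD45G held although 9 of its 10 UMIs were in cell 1. SLC30A1 was the 1 member tested here, and with 0.977 expected UMIs it too entered by being high. It was among the 91, but with so few expected UMIs it could not have entered the test and come out unchanged or lower.

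**Figure D5:**
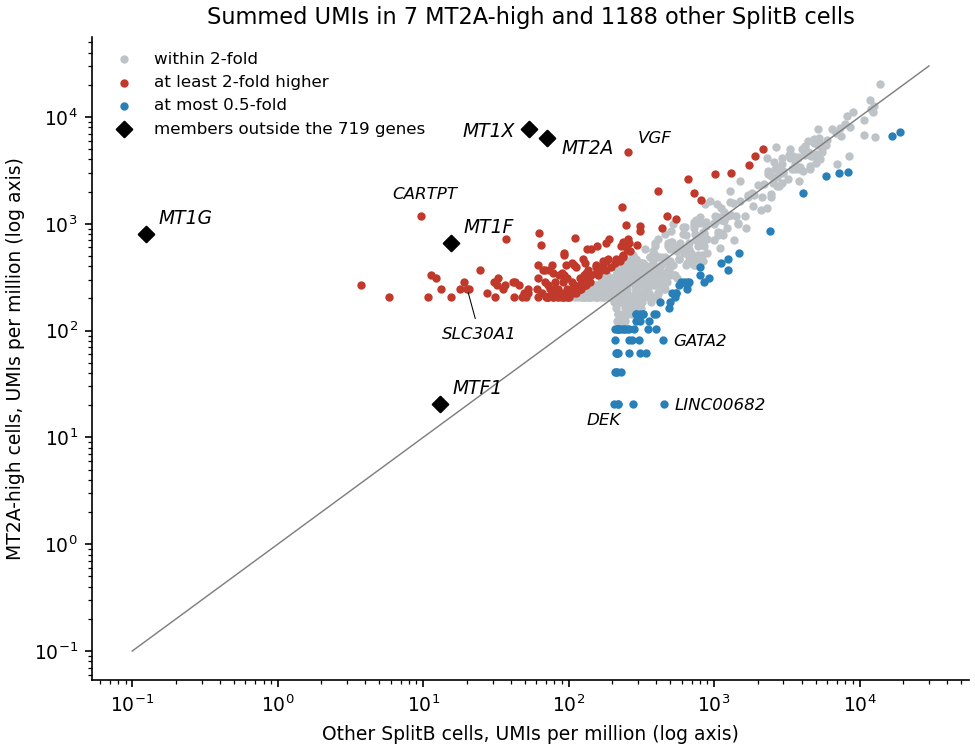
CPM in the other 1188 SplitB cells (x axis) and in the 7 MT2A-high cells (y axis), both log axes, for the 719 genes (those with no UMI in the high cells cannot be drawn) and for 5 members as diamonds; the line marks equal levels. MT2A, MT1X, MT1F and MT1G lie far above the line, SLC30A1 lies above it by 12.3-fold, and MTF1 lies near it.

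Several of the highest ratios came from a single cell. CARTPT, the precursor of a neuropeptide, had 58 UMIs, all in cell 1, against 0.473 expected (ratio 123, interval 85.7 to 174), and PHLDA2, an imprinted gene, had 13, all in cell 1 (71.4, 34.2 to 141). VGF, a secreted neuronal precursor, had 230 UMIs, of which 203 were in cell 1 (18.6, 16.1 to 21.3). GADD45G, a growth arrest gene, had 9 of its 10 UMIs in cell 1 (35.1, 15.8 to 70.3). All of these were highest in cell 1, the cell with 106 MT2A UMIs.

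Other genes had UMIs in more cells, but each of those named next entered the test by being high. TENT5A, a poly(A) polymerase, had 16 UMIs over 5 of the 7 cells, 8 of them in cell 1, with 0.552 expected (ratio 29.0, 15.9 to 49.6). NRN1, which codes for neuritin, had 15 over 5 cells, 10 of them in cell 2, with 0.601 expected (24.97, 13.5 to 43.2). H1-2, a linker histone, had 6, 19, 7 and 3 UMIs in cells 1, 2, 5 and 6 (19.3, 13.2 to 27.4). ATF3, a stress-induced transcription factor, had 2, 6, 1 and 3 in cells 1, 2, 4 and 5 (18.5, 9.26 to 33.6). H2AC6, a core histone, had 14 over 5 cells, 8 of them in cell 2, with 0.929 expected (15.1, 8.05 to 26.1). ECEL1, a neuronal protease, had 10 over 3 cells, 6 of them in cell 7, with 0.528 expected (18.9, 8.77 to 36.5). The 12 SLC30A1 UMIs against 0.977 expected stand beside these.

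The 10 lowest ratios were those of CENPF, LINC00682, DEK, CALM3, CYB561, PCLAF, CCDC85B, ATP5F1D, GATA2 and CDK6. CENPF, a kinetochore protein, had no UMI in the 7 cells with 10.1 expected (ratio 0, interval 0 to 0.366). LINC00682, a long noncoding RNA, had 1 UMI with 21.9 expected (ratio 0.0456, interval 0.0012 to 0.255). GATA2, a transcription factor of adrenergic neuroblastoma, had 4 UMIs, in cells 2 and 4, with 21.8 expected (0.184, 0.0500 to 0.471). DEK, a chromatin protein, CALM3, a calmodulin gene, CYB561, a cytochrome of secretory granules, and PCLAF, a partner of PCNA, had 1 UMI each, with 13.5, 10.7, 10.6 and 10.0 expected. CCDC85B and CDK6, a G1 cyclin-dependent kinase, had 2 UMIs each, with 11.1 and 10.4 expected. ATP5F1D, a subunit of ATP synthase, had 3 with 16.5 expected.

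Zinc transporters and other groups were counted as lists, beside the 22.4% higher and 10.3% lower over all 719 genes. Among the 512 genes with at least 10 expected UMIs, 74 were lower and 30 (5.86%) higher. Of the 10 SLC30 genes 1 was tested, SLC30A1, which entered by being high, and the list had 15 UMIs with 4.95 expected. SLC30A9 had 2 with 1.52 expected, and SLC30A5 had 1 with 1.18. Of the 14 SLC39 importers none had enough UMIs, and the list had 19 with 15.1 expected (ratio 1.25, 0.754 to 1.96). SLC39A3 had 2 with 2.71 expected, SLC39A6 had 4 with 2.63, SLC39A1 had 2 with 2.26 and SLC39A4 had 6 with 1.94. The other metallothioneins, 6 of 7 of which were found, had 16 UMIs with 0.0425 expected, namely the 13 of MT1M and 3 of MT1A in cells 1 and 2. Of the 11 copper handling genes 2 were tested and both were lower, ATOX1, a copper chaperone, with 5 UMIs and 11.2 expected, and COX17, which carries copper to cytochrome oxidase, with 5 and 10.8, and their ratio intervals reached 1.04 and 1.08.

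Stress lists had few members with enough UMIs, and a member with fewer than 10 expected UMIs was tested only where it was high, so for these lists the sum over all members is given first. The 11 hypoxia genes had 42 UMIs with 12.8 expected (ratio 3.28, 2.36 to 4.46), and 1 cell held 13 of the 42. Of these UMIs, BNIP3 had 23 over 6 cells with 6.12 expected and NDUFA4L2 had 14 over 4 cells with 2.01 expected, and both entered the test by being high. VEGFA and SLC2A1 had 1 each, with 1.26 and 1.01 expected. The 10 genes of the integrated stress response had 31 UMIs with 6.91 expected (4.48, 3.03 to 6.40), and 1 cell held 12 of the 31. ATF3, the 1 gene tested, had 12 over 4 cells and ATF4 had 7, 4 of them in 1 cell, with 2.59 expected. PSAT1 and ASNS had none with 0.825 and 0.734 expected. DDIT3, named after its values were seen, had 1, 1, 3 and 1 UMIs in cells 1, 2, 5 and 6 with 0.643 expected (9.33, 3.35 to 20.98).

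The 11 heat shock genes had 138 UMIs with 124 expected (1.11, 0.932 to 1.31). HSPB1 had 51 with 35.5 expected, HSP90AA1 had 44 with 35.2 and HSPE1 had 14 with 22.98. Of the 5 tested, DNAJA1, named after its values were seen, was higher (10 UMIs, 3.40 expected, so that it entered by being high). HSPA8, a constitutive chaperone, was lower (7, 15.9 expected). The 13 genes of the NRF2 and oxidative stress list had 411 UMIs with 305 expected (1.35, 1.22 to 1.48). A single cell held 156 of the 411, so the sum leans on that cell. For FTH1, 101 of the 199 UMIs were in 1 cell. FTH1, the ferritin heavy chain, had 199 with 161.8 expected, FTL, the light chain, 151 with 113.9, and TXN 14 with 17.1. PRDX1, a peroxiredoxin, was the 1 of 4 tested that was higher. It had 30 UMIs with 7.65 expected, so that it entered by being high. Cells 1 and 3 held 13 and 9 of its UMIs, and 60.6% of the other SplitB cells had a UMI of it. HMOX1, which breaks down heme and was named after its values were seen, had 4 UMIs, all in cell 5, with 0.0243 expected (165, 30.7 to 885).

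The 10 p53 targets had 33 UMIs with 21.4 expected (1.54, 1.06 to 2.17), and a single cell held 15 of the 33. RPS27L, the 1 gene tested, had 16 with 10.4 expected and was within the limits, and BAX had 6 with 6.06. GDF15, a stress-induced cytokine named after its values were seen, had 5 UMIs, all in cell 5. None of the 8 glucocorticoid response genes could be tested. The list had 3 UMIs with 3.31 expected, and TSC22D3 and DUSP1 had 1 each, with 1.03 and 0.965 expected.

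The 7 cells held few or no UMIs of proliferation genes. The 10 genes of G2 and mitosis had 0 UMIs in them with 47.8 expected (ratio 0, interval 0 to 0.0772). Of the 10, 1 gene, CENPF, had enough expected UMIs for a call. Of the other SplitB cells 243 of 1188 (20.5%) also had none. UBE2C, which tags mitotic proteins for breakdown, and BIRC5 had 8.23 and 8.19 expected. The 10 S phase genes had 5 UMIs with 26.5 expected (ratio 0.188, 0.0611 to 0.440), among them 1 of TYMS with 5.44 expected and 2 of PCNA with 3.59. All 7 cells had at most 2 UMIs of both lists together, as had 351 of the other 1188 (29.5%), whose median was 7. Of the 47 SplitB cells with 3 to 9 MT2A UMIs, 8 (17.0%) had at most 2.

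Adrenergic markers were present in the flask, and several were lower in the MT2A-high cells. All 10 had UMIs in the other SplitB cells. The list had 67 UMIs in the 7 cells with 141 expected (0.474, 0.368 to 0.603). Of its 7 genes tested, 4 were lower and none higher. Over all 719 genes 10.3% were lower and 22.4% higher. Among the 512 genes with at least 10 expected UMIs, 74 were lower and 30 (5.86%) higher. PHOX2A had 14 UMIs with 32.5 expected (0.431, 0.235 to 0.724), DBH 7 with 15.9, CHGA 7 with 18.9, and the fourth was GATA2. CHGB, named after its values were seen, had 16 with 8.87 expected, within the limits. It was 1 of the 7 tested, but it entered by being high and could not have been called lower. The 10 mesenchymal markers had 54 UMIs with 87.8 expected (0.615, 0.462 to 0.803), and 1 cell held 31 of the 54. LGALS1 alone made up 80.3 of the expected UMIs, so the lower sum describes that gene rather than the list. Neither tested mesenchymal marker was called. LGALS1 had 44 UMIs with 80.3 expected (0.548, 0.398 to 0.736), 25 of them in 1 cell. VIM had 10 with 6.79 expected, so that it entered by being high and could not have been called lower. The other 8 had none in the 7 cells and at most 0.340 expected each, too few to show a fall.

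The S100 and annexin list of 8 genes had 135 UMIs with 29.4 expected (4.59, 3.84 to 5.44), and 1 cell held 74 of the 135. S100A6 had 23 of 42 UMIs in cell 7 with 15.1 expected in all, and its call was lost without 1 of the 7 cells. S100A11 had 34 of 36 in cell 7, and TFPI2, a protease inhibitor counted in that list, had 28 of 40 in cell 1, and both entered the test by being high. Cell 7 was also the cell with a single MT1X UMI.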

How the data were processed

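The authors mapped reads to hg38/GRCh38 with STAR 2.7 and counted UMIs with Cell Ranger 4.0.0 (per the labels' processing notes and the study's methods), and they deposited the filtered matrix as raw UMI counts of 33538 genes and 2 hashtags in 2879 cells, without normalization. The annotation release is not given in the sources used here. Library preparation counted 3' ends of molecules, so counts are not per length. Symbols were found for 33113 identifiers.

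Cells were assigned to a flask when 1 hashtag was at least 3 times the other and the other at most 185, and kept with at least 1000 genes. Kept cells had 1948 to 27205 UMIs in SplitA and 1801 to 27006 in SplitB. No doublet caller was run, and doublets within a flask could remain. Cells are not replicates and each flask is 1 sample, so no p-value was computed. Intervals are exact Poisson for summed counts, exact binomial for shares and exact conditional binomial for ratios, at 95%, with a limit of 3 counts where none was found.

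MT2A-high cells had at least 10 MT2A UMIs. Expected UMIs are those the high cells would hold at the level of the other SplitB cells. A gene outside the metallothioneins was called when its CPM ratio reached 2 or fell to 0.5, among genes with at least 10 found or expected UMIs. The text names the members, the 10 highest and 10 lowest called ratios, the 10 genes most correlated with MT2A (counts log-normalized to 10000), and up to 4 genes per list by summed UMIs. Others are said to be named after their values were seen. Fixed lists covered zinc transporters, other metallothioneins, copper, heat shock, oxidative, integrated, hypoxia, p53 and glucocorticoid responses, cell cycle, neuroblastoma state and S100 genes. Members and lists were chosen with earlier results of these data known. Alternatives concerned hashtag limits, cell filters, depth, the limit on MT2A, the choice of cells by MT1X, thinning to 2000 UMIs, the size limits and the correlation measure. The size rule and the correlation were tried on simulated data. The size rule was tried only for genes with at least 10 expected UMIs, on sums with counting error alone. Genes that entered by being high, and sums that lean on 1 cell, were not covered. Values came from scipy 1.17.1, pandas 2.3.3 and numpy 2.4.6 under Python 3.11.15 and plots from matplotlib 3.10.9, with GENCODE 44 positions and RefSeq promoters of GRCh38.p14. The hashtag reference list was not used.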

Additional observations from a re-analysis of the deposited data

Results flagged for a closer look

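MT2A also had UMIs in cells that the comparisons left out. The 95 multiplets held 33 MT2A UMIs (54.9 CPM, exact Poisson interval 37.8 to 77.1), with at most 4 in a cell, and the 690 cells of 1 flask under 1000 genes held 29 (29.4 CPM, 19.7 to 42.2), with at most 2. Both totals are above the limit of 3 counts that a count of 0 allows, and no cell of either kind had more than 2 UMIs of MT1X.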

How the results depend on the processing

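The number of MT2A-high cells moved with the limit: at 5 MT2A UMIs there were 4 in SplitA and 16 in SplitB, at 20 there were 4 in SplitB, and at 10 per 10000 UMIs there were 2 in SplitA. The MT1X ratio of 145 became 56.6 at the limit of 5, 239 at the limit of 20 and 170 against cells with 0 to 2 MT2A UMIs. MT1F went to 17.6 and 77.9 at these limits, SLC30A1 to 5.07 at 5, and MTF1 to 0 after thinning. The count of 161 higher genes became 75 at the limit of 20, 107 with cells chosen by 10 MT1X UMIs, 102 without the cell with the most MT2A, 54 with a minimum of 20 UMIs and 74 at a ratio of 3. The 74 lower genes became 49 with a minimum of 1500 genes per cell, 31 with a minimum of 20 UMIs and 24 at a ratio of 3. Chosen after seeing the data, a minimum of 10 expected UMIs left 30 higher genes, and calls that held without any 1 cell numbered 91 higher and 49 lower. Of those 30 higher genes, 10 were among the 91. The flask ratio of MT2A fell to 1.22 without the MT2A-high cells and 1.20 without the 9 cells with 10 UMIs of MT2A or MT1X, and that of MT1X turned from 1.84 to 0.98 and 0.91. The r of MT1X with MT2A in SplitB became 0.19 as Spearman's rho and 0.23 without the MT2A-high cells. Only SplitB held the cells left out, so the lower flask ratios follow from removing their UMIs. The cause of these and of the other changes was not tested. In SplitA the r went from 0.18 to 0.08 with cells thinned to 2000 UMIs. The other 78 alternatives for the main results moved a value by less than its interval, a count by less than 1.5 times, or an r by less than the SD over both flasks. Some of these could not move, such as the r of SplitA without MT2A-high cells, as that flask had none. Leaving out SplitA could not change a gene count either, since these counts used SplitB alone. Without SplitB no comparison of cells was left. No paired analysis was possible because the flasks share no replicate number and no test was made. A single library with 7 cells and 48659 UMIs limits what low genes such as MTF1 can show.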

Other observations

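Among the 512 genes with at least 10 expected UMIs, a set looked at only after the data were seen, the 10 highest ratios in the MT2A-high cells were those of VGF, LDHA, NPY, TPI1, CD63, PKM, IGFBP2, ACTB, FKBP2 and S100A6. LDHA, which reduces pyruvate to lactate, had 28, 10, 6, 2, 23, 1 and 0 UMIs in cells 1 to 7 against 11.4 expected over all 7 (ratio 6.16, interval 4.78 to 7.82). TPI1 and PKM, also glycolytic enzymes, had 127 UMIs with 32.4 expected and 46 with 15.1 expected. TPI1 had 36, 35, 27, 3, 18, 4 and 4 in cells 1 to 7, and 96.0% of the other SplitB cells held a UMI of it. PKM had 17, 15, 7, 0, 3, 1 and 3 in the same cells. CD63, a membrane protein of late endosomes, had 11, 3, 2, 1, 12, 7 and 11 UMIs (ratio 3.89, 2.85 to 5.195). NPY, a neuropeptide, had 59 of its 98 UMIs in cell 7 and 34 in cell 6, and IGFBP2 had 31 of 33 in cell 7.

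Genes of the immediate early kind were picked after their values were seen and from no fixed list, and each entered the test by being high. EGR1 had 18 UMIs over 6 of the 7 cells with 1.20 expected (15.1, 8.74 to 24.4). FOS had 4 UMIs in cell 1, 7 in cell 2 and none in the other 5 (8.16, 4.02 to 14.9). JUNB had 13 of its 20 in cell 2 (6.63, 4.02 to 10.4), while DUSP1 had 1 UMI with 0.965 expected. Cell 2 had the most UMIs of MT1X, MT1F, SLC30A1, ATF3, EGR1, FOS and JUNB among the 7.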
